A study of Mus musculus with 24 samples.

Results

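The synaptic vesicle release machinery was followed as 9 genes in mouse *Cep135* embryos: *Snap25*, *Stx1a* and *Vamp2*, *Syt1* and *Cplx1*, and *Syn1*, *Syp*, *Sv2a* and *Rab3a*. They were taken by symbol from a table of 54658 genes, of which 34228 had a read in at least 1 library, and all 9 were found and passed the filter on low values in every comparison. The 24 libraries came from dorsal telencephalon of embryos at E11.5 (embryonic day, counted from mating), from that of E14.5 embryos, and from cells of the same 6 E14.5 embryos grown as incipient neurospheres for 12 or 24 hours, with 3 mutant and 3 control libraries at each of these 4 stages. Mutants were *Cep135*(Δ8/Δ8), labelled Cep135 (-/-), homozygous for an 8-base deletion made with CRISPR/Cas9 in the second exon. Controls were *Cep135*(+/+). The E11.5 mutants are called A, B and C and the E11.5 controls D, E and F. The E14.5 mutants are numbered 1, 2 and 6 and the E14.5 controls 3, 4 and 5, in the cortex and in both cultures. No group received a drug. The deletion is carried in the germline, so every cell of a mutant embryo is mutant.

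Synaptic vesicles fuse with the plasma membrane when a SNARE protein of the vesicle, encoded by *Vamp2* (synaptobrevin), zippers with a pair of SNARE proteins of the target membrane, encoded by *Snap25* and *Stx1a* (syntaxin). Synaptotagmin, encoded by *Syt1*, is the calcium sensor that triggers this step, and complexin, encoded by *Cplx1*, binds the assembled SNAREs and holds or promotes fusion. The vesicle itself carries synaptophysin (*Syp*) and the glycoprotein SV2A (*Sv2a*), is tethered to its neighbours by synapsin (*Syn1*) and is brought to the release site by the GTPase RAB3A (*Rab3a*). In developing cortex these genes are switched on as progenitors leave the cell cycle and become neurons, well before synapses form.

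The promoters of 7 of the 9 genes were listed in RefSeq's table for GRCm38.p6, as windows of 300 bases that run from 250 bases before the transcription start to 50 bases after it. *Snap25* and *Vamp2* had no entry. The 3 windows shown are those of *Syn1*, *Stx1a* and *Syp*, a vesicle tether, a SNARE and a vesicle membrane protein, chosen because they hold between them each of the motifs found. Capitals mark the matches to 3 motifs that were searched on both strands, the GC box GGGCGG, the cyclic AMP response element TGACGTCA, and the core of RE1, the site of the neuronal repressor REST, written as CAGCACC, 2 free bases and GGACAG.
*Syn1* (chrX:20920869-20921168, minus strand): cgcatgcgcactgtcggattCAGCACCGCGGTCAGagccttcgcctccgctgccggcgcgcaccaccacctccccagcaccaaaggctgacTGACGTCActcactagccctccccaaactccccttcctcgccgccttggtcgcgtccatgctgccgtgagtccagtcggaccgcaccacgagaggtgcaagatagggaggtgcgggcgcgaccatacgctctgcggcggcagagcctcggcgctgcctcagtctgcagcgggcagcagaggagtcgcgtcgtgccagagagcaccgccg
*Stx1a* (chr5:135023232-135023531, plus strand): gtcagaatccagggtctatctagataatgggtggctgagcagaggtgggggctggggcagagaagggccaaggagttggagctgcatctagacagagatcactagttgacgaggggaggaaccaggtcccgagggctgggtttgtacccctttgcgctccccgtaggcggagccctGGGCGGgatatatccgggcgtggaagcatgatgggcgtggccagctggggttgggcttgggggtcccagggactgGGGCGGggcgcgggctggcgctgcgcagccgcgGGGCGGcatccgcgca
*Syp* (chrX:7638330-7638629, plus strand): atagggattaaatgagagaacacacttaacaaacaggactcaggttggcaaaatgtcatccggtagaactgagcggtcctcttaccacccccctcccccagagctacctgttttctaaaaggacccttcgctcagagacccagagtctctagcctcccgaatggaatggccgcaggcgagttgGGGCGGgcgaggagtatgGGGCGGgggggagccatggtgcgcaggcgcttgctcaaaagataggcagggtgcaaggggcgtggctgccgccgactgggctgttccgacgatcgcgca
The *Syn1* window held an RE1 core that matched at 12 of 13 fixed positions, starting 230 bases before the start site, and a cyclic AMP response element that started 159 bases before it. An RE1 core with at most 2 mismatches stood in 1.92% of all 32851 promoter windows and a cyclic AMP response element in 1.79%. Of the 7 genes, *Syn1* alone held either motif. A GC box, which 35.7% of all windows held, was found for the other 6, with 3 in the *Stx1a* window and 2 in that of *Syp*. The TATA box TATAAA and the E-box CAGATG, in 13.6% and 17.2% of all windows, were in none of the windows of the 7 genes. The G and C content of the 3 windows shown was 68.3% for *Syn1*, 66.3% for *Stx1a* and 59.0% for *Syp*, against a median of 52.7% over all windows.

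Reads came from the 3′ ends of polyadenylated RNA, so a count follows the number of transcripts and is not scaled by gene length. Values are the deposited normalized read counts, in which the reads of a gene are divided by 1 size factor per library. The libraries held 4732781 to 11645213 reads on genes. *Cep135* itself was not called in any genotype comparison (log2 fold changes of -0.12 and 0.14 in the E11.5 and E14.5 cortices, and of -0.15 and 0.15 in the 12- and 24-hour cultures), and reads from the 3′ end do not show the deletion. The cultures are labelled as cortical neural progenitors. Their summed count of 10 neuron markers, 33554 to 49201, nevertheless covered the 35944 to 46119 of the E14.5 cortices, while the 8 apical progenitor markers summed to 8214 to 13277. Microglia markers summed to 745 to 943 in mutant and 401 to 466 in control E14.5 cortices, and to 6.31 to 61.3 in the cultures. The sum of the endothelial markers was 968 to 1105 in the same cortices and 24.6 to 110.2 in the cultures. The cortex of mutant 6 carries both ages in its labels and was taken as E14.5.

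**Figure D1:**
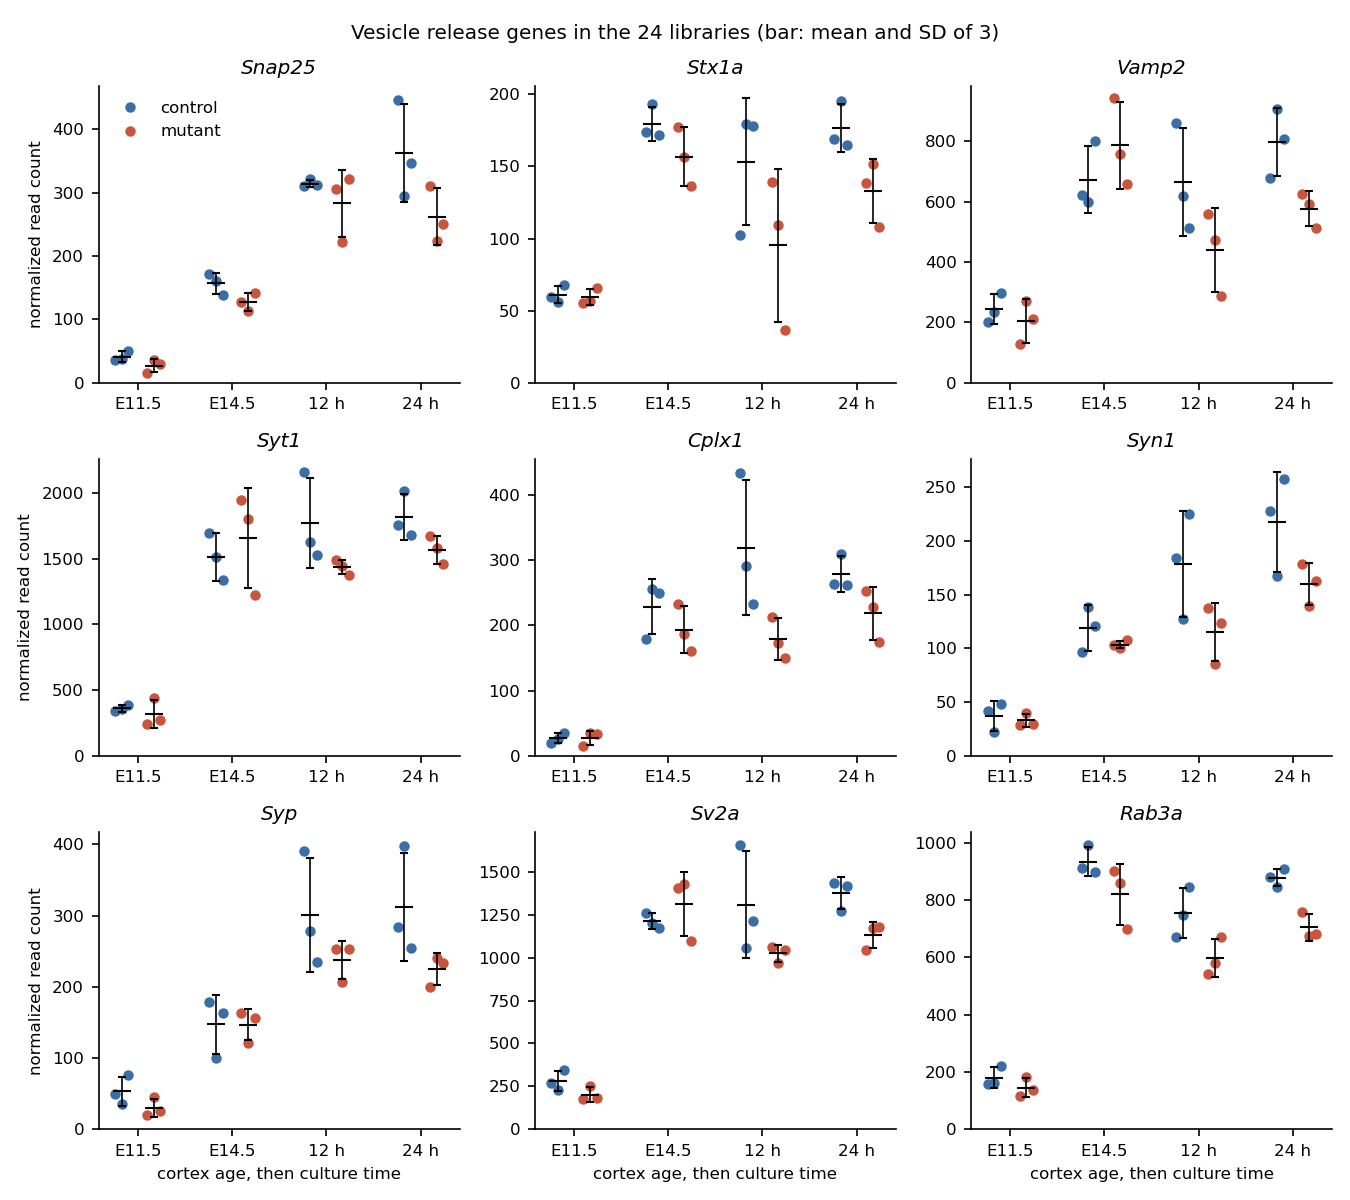
Normalized read count (linear axis from 0) of each gene by cortex age and culture time. Points are libraries, blue for controls and red for mutants, and bars give the mean and SD of 3. In every panel the 6 E14.5 cortices lie above the 6 E11.5 cortices, and in the 24-hour cultures the mutant points lie below the control points for 7 of the 9 genes.

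All 9 genes rose between E11.5 and E14.5 cortex, by 2.76-fold (*Stx1a*) to 7.64-fold (*Cplx1*), and for each of them the lowest of 6 E14.5 libraries lay above the highest of 6 E11.5 libraries. The comparison of ages spans the first days of cortical neurogenesis. By limma on the log2 of the count plus 1, with genotype as a term and Benjamini-Hochberg adjustment over 13650 genes, 23.8% of all genes tested were called higher at E14.5 (adjusted p under 0.05), and 15.5% were higher with no overlap between the ages. The 9 genes had a median log2 fold change of 2.09, against -0.08 over all genes. The prefixes of the embryo names, which the labels do not explain, were read as litters. On that reading the E14.5 embryos were 1 litter and the E11.5 embryos came from others, so age and litter cannot be told apart. In bulk tissue fewer cells of a type and less RNA per cell cannot be told apart either.

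Among the SNAREs, *Snap25* (ENSMUSG00000027273, chr2:136713453-136782428, plus strand of GRCm38) encodes the target-membrane SNARE that lends a pair of helices to the fusion complex. E11.5 mutants had counts of 15.5, 35.7 and 29.6 (A, B, C) and E11.5 controls 36.3, 36.8 and 50.5 (D, E, F). E14.5 mutants had 126, 113 and 141 (1, 2, 6) and E14.5 controls 172, 159.7 and 139 (3, 4, 5). The ages were far apart and the highest E11.5 library, control F, had less than the lowest E14.5 library. The log2 fold change was 2.09 (SE 0.18, adjusted p = 1.2e-07). *Stx1a* (ENSMUSG00000007207, chr5:135023482-135051100, plus strand), the syntaxin that anchors the complex, had 55.5, 56.9 and 65.6 in mutants and 59.5, 56.0 and 67.6 in controls at E11.5. By E14.5 the counts were 177, 157 and 136 in mutants and 174, 193 and 172 in controls. It rose the least of the 9, by 1.46 (SE 0.11, adjusted p = 2.54e-08). *Vamp2* (ENSMUSG00000020894, chr11:69088490-69092384, plus strand) is the vesicle SNARE. It stood at 128, 272 and 212 in E11.5 mutants and 201, 235 and 296 in E11.5 controls. In E14.5 cortices it stood at 943, 758 and 658 in mutants and 621, 598 and 800.3 in controls. Its rise of 1.73 (SE 0.17, adjusted p = 5.51e-07) left it the most abundant of the 3 SNARE genes at both ages.

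Of the genes that control fusion, *Syt1* (ENSMUSG00000035864, chr10:108497650-109010982, minus strand) was the most abundant of all 9 at every stage in both genotypes. The 6 E11.5 cortices held 243, 439 and 271 in mutants and 339.6, 357 and 388 in controls. The 6 E14.5 cortices held 1948, 1799.6 and 1223 in mutants and 1698, 1511 and 1336 in controls. Its rise was 2.23 (SE 0.15, adjusted p = 5.01e-09). On the same strand the span of *Syt1* overlaps those of *Gm5136* and *Gm47477*, and that of *Syn1* overlaps that of *Mir5617*. Whether their exons overlap was not examined. *Cplx1* (ENSMUSG00000033615, chr5:108518554-108550024, minus strand) had the lowest or next to lowest group mean of the 9 at E11.5. Its counts there were 15.5, 34.6 and 33.9 in mutants and 20.2, 25.9 and 35.0 in controls. At E14.5 mutants had 233, 187 and 161 and controls 180.0, 256 and 250.2. No other member rose as much, by 2.93 (SE 0.20, adjusted p = 8.31e-09), which brought it to rank 5 of 9 at E14.5, although its counts overlapped with those of *Stx1a* below it.

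The 4 genes of the vesicle rose as well. *Sv2a* (ENSMUSG00000038486, chr3:96181151-96195521, plus strand), a membrane glycoprotein that regulates release, went from 173, 251 and 179 in mutants and 267, 229 and 344 in controls to 1408, 1432 and 1096 in mutants and 1263, 1205 and 1176 in controls, a log2 fold change of 2.42 (SE 0.14, adjusted p = 1.01e-09). *Rab3a* (ENSMUSG00000031840, chr8:70754679-70758677, plus strand), which docks vesicles, had 117, 181 and 138 in mutants and 158, 159.7 and 222 in controls at E11.5. At E14.5 it had 901, 861 and 700.0 in mutants and 911, 992 and 898 in controls, a log2 fold change of 2.45 (SE 0.12, adjusted p = 2.07e-10). Both were among the 4 abundant members, with *Syt1* and *Vamp2*, and the 5 others had lower means in every group, although in the 12-hour culture of mutant 6 *Snap25* was above *Vamp2*. *Syp* (ENSMUSG00000031144, chrX:7638471-7653256, plus strand), the abundant vesicle membrane protein often used to stain synapses, had 19.4, 44.6 and 25.2 in E11.5 mutants, 49.4, 35.1 and 75.4 in E11.5 controls, 163, 121 and 156 in E14.5 mutants and 179, 100.2 and 163 in E14.5 controls. Its log2 fold change was 1.91 (SE 0.25, adjusted p = 7.88e-06). *Syn1* (ENSMUSG00000037217, chrX:20860511-20921004, minus strand), the phosphoprotein that ties vesicles into a reserve pool, had 29.0, 40.2 and 29.6 in E11.5 mutants, 41.3, 21.7 and 48.2 in E11.5 controls, 103, 100.5 and 107 in E14.5 mutants and 96.5, 139 and 121 in E14.5 controls, and rose by 1.67 (SE 0.18, adjusted p = 1.15e-06). All 10 neuron markers were called higher at E14.5 too, with log2 fold changes of 1.22 to 6.11 and a median of 1.79, and their summed count went from 10535 to 16242 at E11.5 to 35944 to 46119 at E14.5. The part of this in the rise of the 9 genes was not tested.

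The wider pathway moved in the same direction. Of 51 other release genes 44 were called higher at E14.5 and 0 lower by limma, which found 0 of them lower at an unadjusted p under 0.05 as well, with a median log2 fold change of 1.66. All 10 active zone genes and all 6 genes of vesicle endocytosis were called higher, as were 7 of 9 further SNAREs and chaperones, 9 of 11 genes of priming and calcium control and 12 of 15 other vesicle proteins. The largest changes among the called genes were those of *Sncb* (β-synuclein), 4.51 (SE 0.23), and *Syt4*, 4.02 (SE 0.21). The smallest of the called changes were those of *Syt11*, 0.24 (SE 0.08), and *Nsf*, the ATPase that takes SNARE complexes apart in all cells, 0.28 (SE 0.09).

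**Figure D2:**
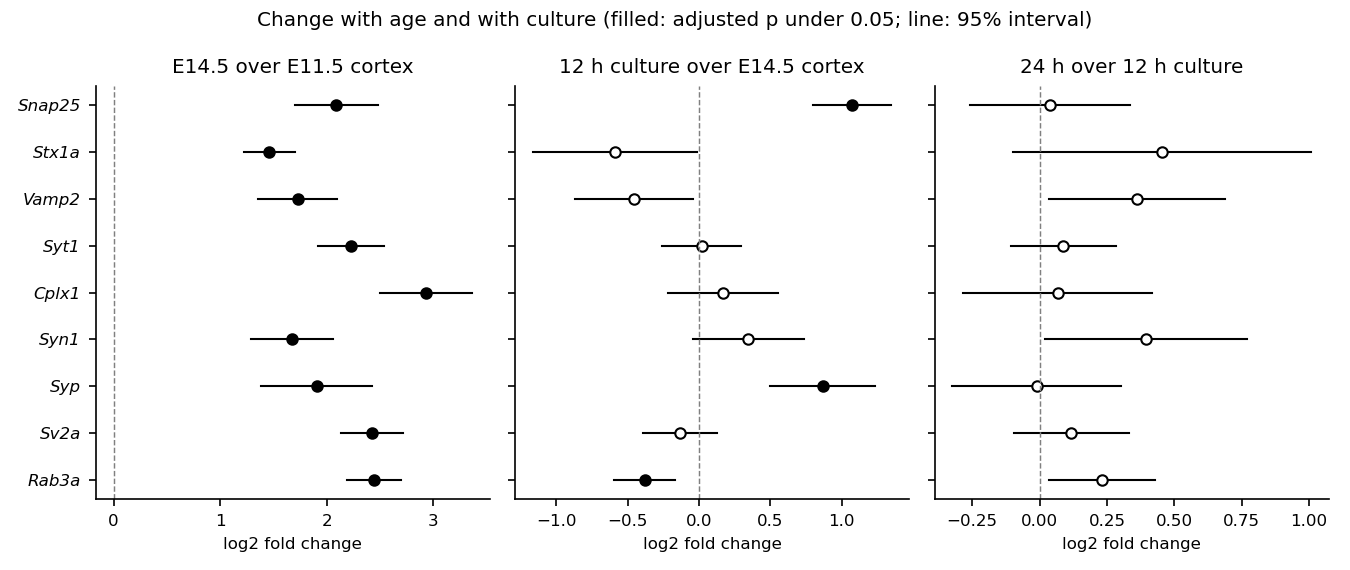
Log2 fold change of the 9 genes with age, on entering culture and between the culture times, from limma, with 95% intervals (filled points: adjusted p under 0.05). All 9 points of the age panel are filled and right of 0, 3 are filled in the 12-hour panel, *Snap25* and *Syp* right and *Rab3a* left of 0, and none in the third panel.

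When E14.5 cortex was dissociated and cultured for 12 hours the 9 genes differed from one another. *Snap25* rose 2.10-fold and *Syp* 1.82-fold, each in 6 of 6 embryos, and *Rab3a* fell to 0.768 of its cortex level in 6 of 6 embryos, while the other 6 genes did not pass the test. The fit took genotype as a term over 12 libraries, and 14.1% of the 13601 genes tested were called higher and 16.1% lower. Of the 9 genes, 2 called higher and 1 called lower were near that background, and their median log2 fold change was 0.02, against -0.06 over all genes. The neuron markers had a median of -0.02, with 1 of 10 called lower and 0 called higher by limma (1 lower and 0 higher at an unadjusted p under 0.05). Of 8 apical progenitor markers 6 were called lower and 1 higher (median -0.95), of 5 intermediate progenitor markers 4 were called lower, and all 7 erythroid markers were called higher (median 1.32), their sum being 38225 to 45317 in the cortices and 69405 to 153050 in the 12-hour cultures. Their part in the changes of the 9 genes was not tested.

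*Snap25* at 12 hours had 306, 222 and 321 in mutants 1, 2 and 6, against 309.9, 321 and 312 in controls 3, 4 and 5. All 6 cultures lay above all 6 cortices, and mutant 2 was the lowest of the cultures. The log2 fold change was 1.07 (SE 0.13, adjusted p = 1.79e-05). *Syp* had 253, 207 and 253 in mutants and 390.1, 278 and 235 in controls, also above every cortex. Its log2 fold change was 0.87 (SE 0.17, adjusted p = 0.00151). *Rab3a* had 543, 582 and 673 in mutants and 670.1, 747 and 846 in controls. The fall was -0.38 (SE 0.10, adjusted p = 0.00983), and although every embryo went down, cortices and cultures overlapped, with the lowest cortex count in mutant 6 and the highest culture count in control 5.

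The other 2 SNARE genes did not pass the test. *Stx1a* had 139, 109 and 36.7 in mutants and 102, 179.7 and 178 in controls at 12 hours, where mutant 6 had the lowest count of all E14.5-derived libraries. Its difference from cortex was -0.59 (SE 0.27, adjusted p = 0.111). *Vamp2* had 561, 472 and 288 in mutants, against 862, 620.0 and 512 in controls, a difference of -0.46 (SE 0.20, adjusted p = 0.0882). *Vamp2* passed the threshold without control 3 at 12 hours (-0.59, adjusted p = 0.0255) and with quantile normalization (-0.55, adjusted p = 0.0356). The count of *Snap25* per count of *Stx1a*, which no size factor touches, was 0.279 to 0.747 in the 6 E11.5 cortices and 0.713 to 1.03 in the 6 E14.5 cortices. It was 1.75 to 8.73 in the 12-hour cultures, with the highest value in mutant 6, and 1.47 to 2.64 in the 24-hour cultures, so cultures and cortices did not overlap. *Syp* per *Sv2a*, 2 membrane proteins of the same vesicle, was 0.112 to 0.22 in the E11.5 cortices, 0.0831 to 0.142 in the E14.5 cortices, 0.193 to 0.263 at 12 hours and 0.178 to 0.313 at 24 hours, so that the cultures overlapped with the E11.5 but not with the E14.5 cortices. These ratios were chosen after the values were seen and carry no test.

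The remaining 4 members did not pass the test either. The log2 differences were 0.02 (SE 0.13) for *Syt1*, 0.17 (SE 0.18) for *Cplx1*, 0.34 (SE 0.18) for *Syn1* and -0.13 (SE 0.12) for *Sv2a*. Their 12-hour counts covered 1379 to 2159.8 for *Syt1*, 150.5 to 434 for *Cplx1*, 85.2 to 225 for *Syn1* and 968 to 1656 for *Sv2a*, and in 3 of these 4 genes the highest was control 3. Of the 51 other release genes 10 were called higher and 11 lower. Of the 10 active zone genes 5 were called higher and 0 lower by limma (0 lower at an unadjusted p under 0.05 also), while of 15 other vesicle proteins 5 were called lower and 1 higher. Highest of the called genes were *Unc13a*, which primes vesicles, 0.82 (SE 0.16), and *Pclo*, the scaffold piccolo, 0.76 (SE 0.16). Lowest were *Sv2b*, -1.18 (SE 0.24), and *Rab3b*, -1.16 (SE 0.31), the close relatives of *Sv2a* and *Rab3a*.

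Between 12 and 24 hours of culture none of the 9 genes changed past the threshold, by limma or by edgeR or DESeq2 on the whole reads recovered from the table. Limma called 0.15% of 13359 genes higher and 0.142% lower. *Vamp2*, *Syn1* and *Rab3a* had an unadjusted p under 0.05, with log2 differences of 0.36 (SE 0.16, adjusted p = 0.468), 0.39 (SE 0.18, adjusted p = 0.497) and 0.23 (SE 0.09, adjusted p = 0.429). These are 3 of 9, against 9.64% of all genes tested at that threshold. *Syn1* and *Rab3a* were higher at 24 hours in 6 of 6 embryos and *Vamp2* in 5 of 6. *Snap25* and *Syp* had log2 differences of 0.04 (SE 0.14) and -0.01 (SE 0.15) with 95% intervals of -0.26 to 0.33 and -0.32 to 0.30.

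**Figure D3:**
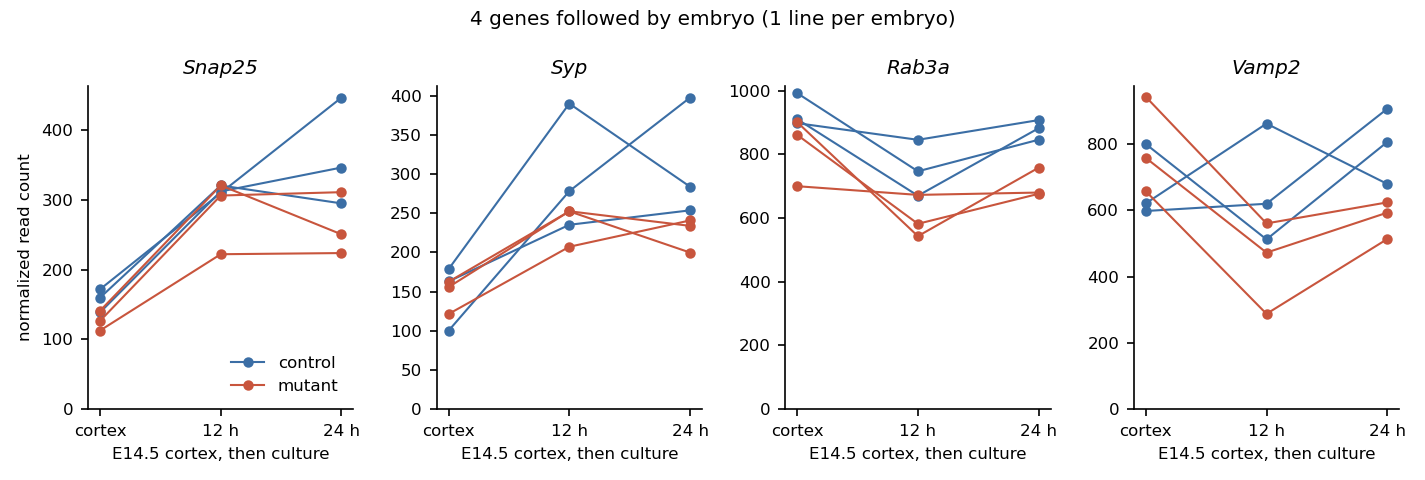
Normalized read count of *Snap25*, *Syp*, *Rab3a* and *Vamp2* in E14.5 cortex and in the 12- and 24-hour cultures of the same embryo (1 line per embryo, blue for controls, red for mutants, linear axis from 0). All lines rise to 12 hours for *Snap25* and *Syp* and fall for *Rab3a*, and between cortex and 24 hours those of *Vamp2* go down in 3 mutants and up in 3 controls.

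**Figure D4:**
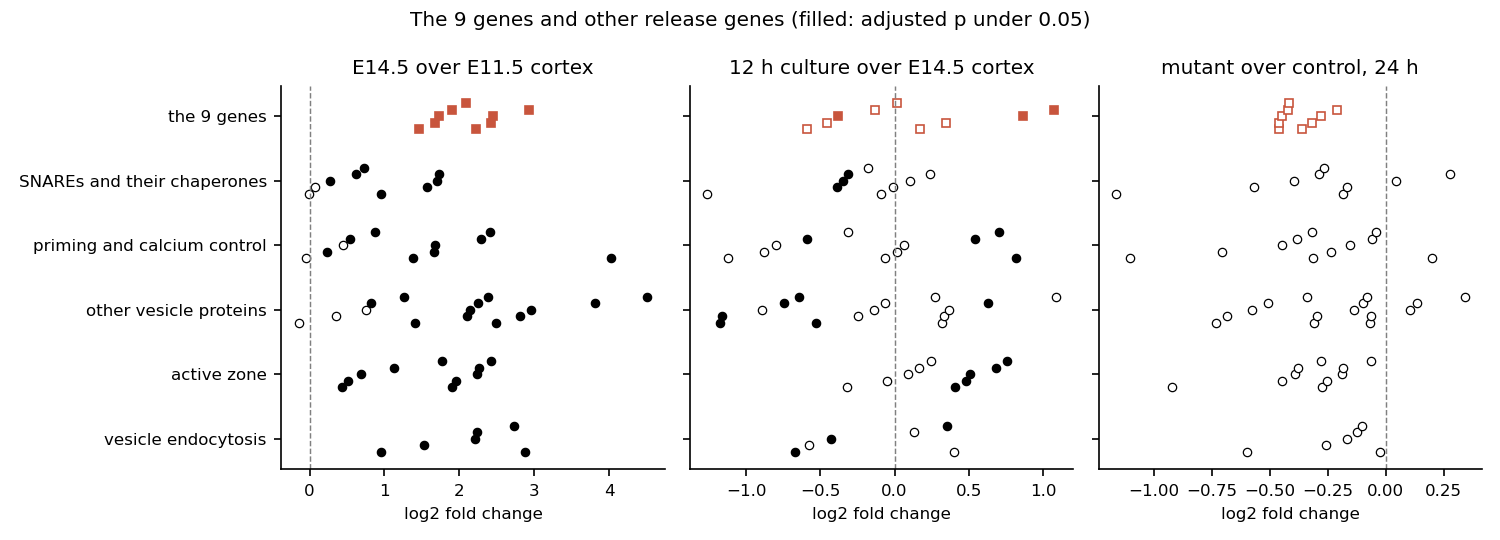
Log2 fold changes (limma) of the 9 genes (squares) and of 51 other release genes by role (circles; filled: adjusted p under 0.05) with age, in 12-hour culture and by genotype at 24 hours. Nearly all points lie right of 0 in the age panel, they spread to both sides in the culture panel, and in the genotype panel 45 of 51 circles and 9 of 9 squares lie left of 0 with none filled.

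None of the 9 genes was called between *Cep135* mutants and controls by limma, in cortex or in culture. The lowest median was in the 24-hour cultures, where all 9 genes had a log2 fold change below 0, between -0.46 (*Vamp2*) and -0.21 (*Syt1*), with a median of -0.42 against -0.01 over all genes. Limma called 0.271% of 13300 genes there, 0.0149% of 13406 in E11.5 cortex, 0.0736% of 13583 in E14.5 cortex, 0% of 13389 at 12 hours and 0.139% of 13650 over the 12 cortices in a fit that includes age. The number of the 9 genes with an unadjusted p under 0.05 was 2 in E11.5 cortex, 0 in E14.5 cortex, 2 in the 12-hour and 5 in the 24-hour cultures, and 1 over the 12 cortices. Over all genes tested the share at that threshold was 7.39% in E11.5 cortex and 9.1% in E14.5 cortex, 4.85% in the 12-hour and 10.6% in the 24-hour cultures, and 8.71% over the 12 cortices. EdgeR and DESeq2 on whole reads, run for E14.5 and for both cultures, also called 0 of 9. With 3 embryos against 3, a single gene cannot reach an exact permutation p below 0.1.

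At 24 hours the mutants lay below all controls for 7 of the 9 genes, which 9.06% of all genes tested did. For *Vamp2* mutants 1, 2 and 6 had 624, 593 and 513 and controls 3, 4 and 5 had 680.0, 907 and 806. The highest mutant was under the lowest control, and the log2 fold change was -0.46 (SE 0.15, adjusted p = 0.243). *Rab3a* had 758, 676 and 680.1 in mutants and 882, 846 and 908 in controls, -0.32 (SE 0.12, adjusted p = 0.369). *Sv2a* had 1047, 1171 and 1180.3 in mutants and 1438, 1271 and 1421 in controls, -0.28 (SE 0.12, adjusted p = 0.418). In both the 3 libraries of each genotype lay close together. *Syp*, with 199.9, 241 and 234 against 284, 398 and 254 and -0.45 (SE 0.19, adjusted p = 0.418), had control 4 far above the other 5 libraries. *Syt1* had 1672, 1578 and 1459.7 against 1759, 2012 and 1684, -0.21 (SE 0.12, adjusted p = 0.577). *Stx1a* had 138, 152 and 108 against 169, 195 and 165, -0.42 (SE 0.20, adjusted p = 0.485). In both, the top mutant and the bottom control were close to each other. *Cplx1* had 254, 228 and 175 against 264, 310.1 and 263, -0.36 (SE 0.18, adjusted p = 0.514). The 2 genes whose groups overlapped were *Snap25*, with 311, 224 and 251 against 447, 295 and 346 and -0.46 (SE 0.19, adjusted p = 0.394), and *Syn1*, with 178, 139.7 and 162 against 228, 167 and 258 and -0.42 (SE 0.20, adjusted p = 0.487).

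Other features of the 24-hour libraries were arranged the same way. The 10 neuron markers summed to 34943 to 39460 in mutants and 43638 to 49201 in controls, with all 10 log2 fold changes below 0, a median of -0.27 and 1 called lower. The 8 apical progenitor markers summed to 12079 to 13277 in mutants and 9389 to 10593 in controls. The summed count of the 9 genes per 1000 counts of neuron marker was 126 to 143 in mutants and 125 to 147 in controls, so the genotypes overlapped. On this scale the mutants lay below all controls for 0 of the 9 genes, at 24 hours as at every other stage. Mutants above all controls were not counted, and *Sv2a* at E14.5 was such a case, with 30.5 to 39.0 in mutants and 26.1 to 28.0 in controls. The share of all genes on this scale was not computed. *Gm42418*, a gene whose RNA carries ribosomal sequence, took 20.5% to 23.0% of the counts in mutants and 6.26% to 13.9% in controls, and the mutant libraries were deeper, with 7903426 to 11645213 reads against 4732781 to 5709443. Liver transcripts without *Ttr*, 10 genes, summed to 125 to 430.4 in mutants and 11.3 to 27.0 in controls. In E14.5 cortex these sums were 58.7 to 85.0 in mutants and 65.9 to 1130 in controls. At 12 hours they were 228 to 1027 in mutants and 23.6 to 1523 in controls. Mutants 1 and 2 were female and mutant 6 and the 3 controls male. The part of neuron and progenitor content, depth, *Gm42418*, liver transcripts and sex in the difference was not tested. The only fits on these had a term for sex or for *Gm42418* and called 0 of the 9. Of the 51 other release genes 45 had a log2 fold change below 0 at 24 hours, with a median of -0.26, 14 with an unadjusted p under 0.05 and 17 with all mutants below all controls. Limma and edgeR called 0 of them, limma with no filter on low values called 1 lower, and DESeq2 called 3 lower.

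**Figure D5:**
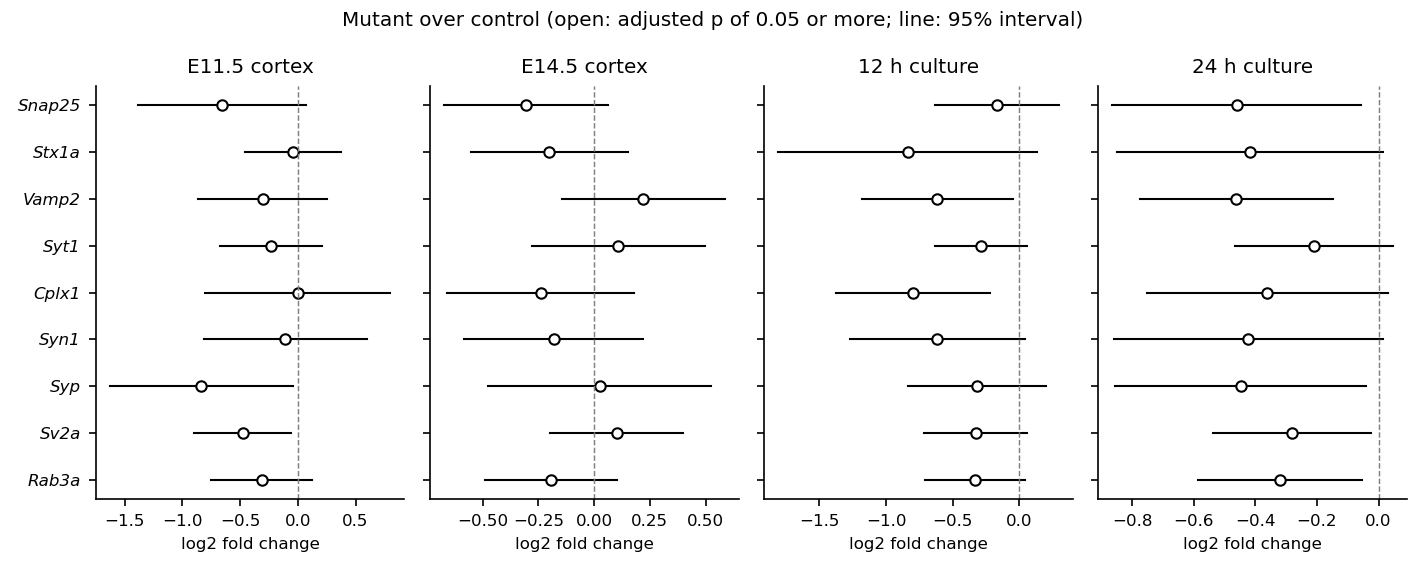
Log2 fold change of mutant over control for the 9 genes at each stage (limma, with 95% intervals; open points: adjusted p of 0.05 or more; the axes differ in range). No point is filled, all 9 lie left of 0 at E11.5 (*Cplx1* at -0.0007), at 12 hours and at 24 hours, and 5 of 9 do at E14.5.

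At 12 hours the 9 log2 fold changes were also below 0, between -0.84 and -0.17, with wider errors than at 24 hours and a median of -0.33. Mutants lay below all controls for *Syt1* and *Cplx1*, that is 2 of 9, against 5.94% of all genes tested. *Cplx1*, with 214, 173 and 150.5 in mutants and 434, 291 and 233 in controls, differed by -0.80 (SE 0.27, adjusted p = 0.913), and *Vamp2* by -0.61 (SE 0.26, adjusted p = 0.913). *Syt1* had 1489.8, 1443 and 1379 in mutants and 2159.8, 1625 and 1527 in controls. *Syn1* had 137, 85.2 and 124 in mutants and 184, 127 and 225 in controls, and *Sv2a* 1064, 968 and 1046 in mutants and 1656, 1057 and 1217 in controls. Control 3 was the highest library for *Vamp2*, *Syt1*, *Cplx1*, *Syp* and *Sv2a*, and control 5 for *Syn1* and *Rab3a*. For *Stx1a* the difference of -0.84 (SE 0.45, adjusted p = 0.913) had mutant 6 lowest at 36.7. Without mutant 6 it was -0.26 (adjusted p = 0.989), and with a term for embryo sex, where mutant 6 is the only male mutant, it was -1.99 (adjusted p = 0.0422). Markers of other cells also leaned to 1 side at 12 hours, where limma called 0 of all genes. The neuron markers had 9 of 10 log2 fold changes below 0 (median -0.22, 0 with an unadjusted p under 0.05) and the apical progenitor markers 8 of 8 above 0 (median 0.26, 0 with an unadjusted p under 0.05). The 4 intermediate progenitor markers tested were all above 0 (2 with an unadjusted p under 0.05) and the 7 erythroid markers all below 0 (4 with an unadjusted p under 0.05). Their part in the values of the 9 genes was not tested.

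In E11.5 cortex the 9 log2 fold changes were below 0 with a median of -0.31, although that of *Cplx1*, -0.0007 as fitted, was nearly 0. Only *Snap25* had all mutants below all controls, 1 of 9 against 6.11% of all genes, at -0.66 (SE 0.33, adjusted p = 0.677). *Syp* and *Sv2a* had an unadjusted p under 0.05, with -0.84 (SE 0.36, adjusted p = 0.667) and -0.48 (SE 0.19, adjusted p = 0.63). Mutant A had the lowest count of the 6 libraries for 8 of the 9 genes, all but *Syn1*, and control F the highest for 8 of the 9, all but *Syt1*. If the prefix of the names in the titles stands for the litter, mutant A and control D shared 1 litter and the other 4 embryos another. The descriptions, however, give mutants B and C a prefix of their own. If that is a separate litter, then litter and genotype cannot be told apart among those 4. *Snap25* was 15.5 in mutant A and 36.3 in control D, and 35.7 and 29.6 in mutants B and C against 36.8 and 50.5 in controls E and F. The neuron markers had 10 of 10 log2 fold changes below 0 there, with a median of -0.27 and 0 called by limma, 5 of them with an unadjusted p under 0.05, and summed to 10535 to 12373 in mutants and 10865 to 16242 in controls. Progenitor markers leaned the same way. All 8 apical ones were below 0 (median -0.12, 1 with an unadjusted p under 0.05 by limma) and summed to 14385 to 15951 in mutants and 15891 to 18131 in controls. All 5 intermediate progenitor markers were below 0 (median -0.16, 1 with an unadjusted p under 0.05 by limma). The 7 markers of ventral telencephalon and interneurons were also all below 0 (median -0.37, 3 with an unadjusted p under 0.05) and summed to 971 to 1179 in mutants and 1382 to 1623 in controls, without overlap. The 4 markers of Cajal-Retzius cells, which are neurons too, went the other way. All 4 were above 0 (median 0.26, 0 with an unadjusted p under 0.05), with sums of 434 to 484 in mutants and 288 to 423 in controls. Liver transcripts without *Ttr* summed to 79.2 to 909 in mutants and 48.2 to 51.4 in controls. Their part in the differences of the 9 genes was not tested.

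In E14.5 cortex 4 genes had a log2 fold change above 0 and 5 below, none with an unadjusted p under 0.05, and all groups overlapped. The extremes were *Vamp2*, 0.22 (SE 0.17, adjusted p = 0.694), and *Snap25*, -0.30 (SE 0.17, adjusted p = 0.604). Neuron markers were lower in mutants there as well, summing to 35944 to 38098 against 43363 to 46119, with 9 of 10 log2 fold changes below 0 and 1 called lower. The 4 Cajal-Retzius markers summed to 809 to 956 in mutants and 550 to 666 in controls. The 6 microglia markers summed to 745 to 943 in mutants and 401 to 466 in controls. The 9 genes per 1000 counts of neuron marker came to 122 to 158 in mutants and 112 to 117 in controls, with all 3 mutants above all 3 controls. The part of cell content in the values of the 9 genes was not tested. Over the 12 cortices with age as a term *Snap25* differed most, by -0.48 (SE 0.18, adjusted p = 0.462), and an exact permutation test of this gene alone within ages, two-sided, gave p = 0.015, where 0.005 is the smallest possible. For *Rab3a* the difference was -0.25 (SE 0.12, adjusted p = 0.571) with an exact permutation p of 0.08, and for the other 7 the exact permutation p ranged from 0.18 to 0.865. These p-values are not adjusted for the 9 genes or for embryo sex. With a term for sex the 9 differences over the 12 cortices lay between -0.32 and 0.10. At E11.5 2 of 3 mutants and 1 of 3 controls were female, and at E14.5 2 of 3 mutants and 0 of 3 controls.

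Interaction terms over 12 libraries each, in fits with no term for embryo, tested whether the genotype difference itself changed with age or with culture. For age 0% of 13650 genes were called, and for culture 0% of 13579. For genotype by age *Sv2a* had the smallest p among the 9, with a log2 difference of 0.58 (SE 0.24, adjusted p = 0.62). For 24-hour culture against E14.5 cortex all 9 differences were below 0, with *Vamp2* at -0.68 (SE 0.23, adjusted p = 0.724) and *Sv2a* at -0.38 (SE 0.17, adjusted p = 0.786). These 2 and *Sv2a* with age had an unadjusted p under 0.05, as 6.16% of all genes did for culture and 7.84% for age, and limma, and in culture edgeR and DESeq2, called 0 of 9. Culture comparisons share the E14.5 cortices with the E14.5 genotype comparison.

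Across the 24 libraries the 9 genes followed each other, over a range that includes the rise from E11.5 to E14.5. The log2 count of a gene had a Pearson r of 0.919 to 0.981 with the mean of the other 8, except for *Stx1a* at 0.772. *Snap25* and *Syp* were close to each other at 0.965 and farther from *Stx1a*, at 0.632 and 0.628. *Syt1*, *Sv2a* and *Rab3a* correlated at 0.971 to 0.987. The 24 points include 6 embryos that appear 3 times, and these values are a description. The 8 genes nearest to the mean of the 9, of 13678 genes with a mean of at least 10, were *Gnao1* (r = 0.992), *Pak7* and *Gria1* (0.991 each), *Syt4* (0.991), *Rtn1* (0.990), *Chl1* (0.989), *Camk2b* (0.988) and *Rab3c* (0.988).

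The order of the levels was fixed only in part. In controls *Syt1* led at every stage and *Sv2a* came next, with means of 1515 ± 181 and 1215 ± 44.5 at E14.5 (SD, n = 3). *Rab3a* and *Vamp2* followed with 934 ± 51.2 and 673 ± 111. These 4 were each apart from the next at E14.5, and *Vamp2* was apart from all below it at E14.5 and in both cultures. At E11.5 the 4 overlapped with their neighbours, with only *Rab3a* (179.8 ± 36.1) apart from the gene at rank 5, *Stx1a* (61.0 ± 5.96). Among the lower 5 the order changed: *Snap25* had rank 7 in control cortices at both ages, rank 6 at 12 hours and rank 5 at 24 hours with 363 ± 77.1, while *Stx1a* went from rank 5 at E11.5 and rank 6 at E14.5 to rank 9 in both cultures, with 177 ± 16.5 at 24 hours. Neighbours among these lower 5 mostly overlapped, so that single steps of the order do not separate beyond the spread.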

How the data were processed

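RNA of 24 libraries was read at 3′ ends after oligo(dT) priming with a stranded kit (QuantSeq FWD). The authors aligned reads to GRCm38 and counted them per gene on GENCODE vM20 genes, and per the labels' processing notes TopHat2 (2.0.10), Bowtie (1.0.0), SAMtools (0.1.19) and HTSeq (0.6.1) were among the tools. The authors deposited 1 table of signal, in which each library's counts had been scaled by its own size factor and replicates kept apart. All 484666 values above 0 were whole reads to within 0.1 read once multiplied by the size factor. The 20486 values of control D at E11.5 were whole as well, although 1 read was worth 1.00769, close to 1. Count tests were nevertheless run only without E11.5 libraries.

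Mutants and controls, ages, cortex and culture, and culture times were compared with limma (3.58.1, R 4.3.3) with a trend on log2 of the value plus a pseudocount of 1, over genes whose mean reached 10, which understates changes of low genes. Adjustment was by Benjamini-Hochberg over all genes tested, with a threshold of 0.05. A fold change is on the log2(value + 1) scale. Alternatives were a pseudocount of 0.1 or of 5, dropping the filter or raising it to 50, quantile normalization, edgeR (4.0.16) and DESeq2 (1.42.0) on whole reads, terms for sex and *Gm42418*, litter or replicate block, and each library left out. The fits were tested on simulated data. The 9 members, the 51 pathway genes, the marker lists and the tests were chosen with earlier results of these data known. Named genes are the 9 members, the 2 highest and 2 lowest called pathway genes of a comparison, the 8 genes most like the members' mean, and *Cep135*. Replicates are separate embryos. Cortex and cultures are paired by embryo, as the labels give it (deviations of same-embryo libraries had correlations of -0.11 to 0.24 over 18 pairs, 12 above 0.1). The main culture fits had no term for embryo, which the replicate block added as an alternative. Sex was read from *Xist* and Y-linked transcripts. Gene positions came from GENCODE vM21 (GRCm38), promoters from RefSeq.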

Additional observations from a re-analysis of the deposited data

Results flagged for a closer look

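*Vamp2* was the 1 gene of the 9 in which every mutant moved one way and every control the other between E14.5 cortex and 24-hour culture. It went down in all 3 mutants, with a mean log2 change of -0.44, and up in all 3 controls, with a mean of 0.25. The share of all genes that split in this way was not computed. The difference between genotypes was tested by the interaction of genotype and culture in limma, in a fit with no term for embryo. It gave -0.68 (SE 0.23, unadjusted p = 0.00789, adjusted p = 0.724), and 0 of 13579 genes were called. The paired fit, with a term for embryo, called some genes but 0 of the 9. The cortex of mutant 1 had the highest *Vamp2* count of the 6 cortices, 943.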

How the results depend on the processing

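The 9 genes kept their calls with age under every alternative run (9 called higher in each). In 12-hour culture 2 were called higher under every alternative, the replicate block by embryo included (2 higher and 1 lower), and the number called lower was 2 with quantile normalization and 1 to 2 when 1 library was left out, *Vamp2* being the added gene (-0.55 with quantile normalization, and without control 3 at 12 hours). In the genotype comparisons 0 of 9 were called under every alternative, except 1 at 12 hours with a term for embryo sex (*Stx1a*, -1.99). Between culture times, and for genotype by culture, the paired fits called 0 of 9 as well.

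Signs of uncalled differences turned as follows. At E11.5, *Cplx1* was 0.0066 with a pseudocount of 5, 0.019 with quantile normalization and 0.10 with the term for sex, and *Syn1* was 0.13 with that term. The term for sex also gave -0.021 for *Vamp2*, -0.30 for *Syt1* and -0.15 for *Sv2a* at E14.5, 0.030 for *Snap25* at 12 hours and 0.10 for *Syn1* over the 12 cortices. A term for the *Gm42418* share gave 0.15 for *Syn1* at 24 hours, and quantile normalization gave -0.12 for *Syt1* between cortex and 12 hours. With 1 library left out at a time, values lay on both sides of 0 for some genes. They spanned -0.11 to 0.035 for *Stx1a*, -0.19 to 0.36 for *Cplx1* and -0.44 to 0.11 for *Syn1* at E11.5. They spanned -0.023 to 0.31 for *Syt1* and -0.23 to 0.19 for *Syp* at E14.5. They spanned -0.13 to 0.12 for *Vamp2*, -0.16 to 0.031 for *Syt1* and -0.22 to 0.029 for *Cplx1* over the 12 cortices. They spanned -0.070 to 0.099 for *Syt1* between cortex and 12 hours.
At 24 hours the 9 log2 fold changes lay between -0.70 and -0.22 with the term for sex and between -1.05 and 0.15 with that for *Gm42418*.

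Over all genes the number called by genotype at E14.5, 10, was 1 with the term for sex, 31 with no filter, 57 with DESeq2 and 1 to 74 with 1 library left out. At 24 hours 36 became 4 with the term for sex, 0 with that for *Gm42418*, 140 with no filter, 202 with DESeq2 and 7 to 46 with 1 library left out. At 12 hours 0 became 182 with the term for sex, and in the 12 cortices 19 became 7 with it. Between culture times 39 became 104 with the replicate block and 166 with DESeq2, and for genotype by culture 0 became 6 and 20. The cause was not tested. 3 embryos a group and, at E11.5, counts under 100 for 5 of the 9 genes limit the precision. The litter block at E11.5 read litters from the name prefixes in the titles, which the descriptions contradict for mutants B and C.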
